A study of Rattus norvegicus with 10 samples.

Results

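Genes of connective tissue and of the cell layers around the brain were examined in the hippocampus of young rats: the collagen genes Col1a1, Col1a2, Col3a1, Col6a3 and Col9a3, the matrix genes Mgp, Ogn and Dcn, the transporter gene Slc13a4 and the prostaglandin synthase gene Ptgds. These 10 genes are among 14217 with a probe set (a group of array probes for 1 transcript) that carried exactly 1 gene symbol, and had 16 of the 31042 probe sets analysed. The genes were chosen by values of these same arrays, namely their levels in each rat, how they varied together, how they differed from Ttr, a gene of the choroid plexus, and how the groups compared. Accordingly, those values are given as a description, and no test over the 10 genes was made. The hippocampi came from male Wistar rats, 4 weeks old by the labels. The C-group (5 rats, C1 to C5) ate chow, a solid feed, and the P-group (5 rats, P1 to P5) ate powdered feed, in both cases for 8 days and after 2 days on powder. The hippocampus was dissected by hand, and the labels do not say how much of the adjoining membranes or choroid plexus each sample held. The comparison asked how solid feed, which has to be chewed, goes with gene expression in the hippocampus.

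The meninges are the membranes around the brain, and their fibroblasts lay down a matrix of collagen fibrils, proteoglycans and calcification inhibitors. Type I collagen is a trimer of the products of Col1a1 and Col1a2, and type III collagen, from Col3a1, is laid into the same fibrils. Small leucine-rich proteoglycans such as decorin bind to these fibrils. The choroid plexus, a folded epithelium on a fibroblast core, continues from the meninges into the ventricles beside the hippocampus, and several genes are used in both tissues.

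Values are log2 expression values that the authors summarized with qFARMS, a factor model that leaves a probe set nearly constant when its probes share little variation. An SD (standard deviation) above 0.01 over the 10 rats, which is called variable here, was found in 2904 of the 31042 (9.36%). Of the 16 probe sets of the 10 genes, 14 were variable, and every gene had at least 1. The exceptions were a second probe set of Col1a1, at 7.67 in both groups, and a second probe set of Col6a3, at 6.23 in both groups. Over the 10 rats, the nearly constant probe set of Col1a1 still correlated with the variable one at r = 0.94, and that of Col6a3 at r = -0.49. Each gene is described by its most variable probe set, which was also the one with the highest mean except for Ogn. Levels are not compared between genes, because probes differ in brightness.

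RefSeq promoter windows, from 250 bases before to 50 bases after the annotated start in the rat assembly GRCr8, matched 5 of the 10 genes. Those of Col1a2, Ptgds and Slc13a4 are shown because the first pair varied together most closely of the pairs between a collagen gene and a gene of another kind, and the third followed another pattern over the rats. Capitals mark the promoter motif CCAAT and the TATA box motif, spelled TATAAA. Each motif was searched on both strands, and on the opposite strand the first of them reads ATTGG. The windows are chr4:33518307-33518606 (plus strand), chr3:28682929-28683228 (minus strand) and chr4:64955937-64956236 (minus strand).
Col1a2: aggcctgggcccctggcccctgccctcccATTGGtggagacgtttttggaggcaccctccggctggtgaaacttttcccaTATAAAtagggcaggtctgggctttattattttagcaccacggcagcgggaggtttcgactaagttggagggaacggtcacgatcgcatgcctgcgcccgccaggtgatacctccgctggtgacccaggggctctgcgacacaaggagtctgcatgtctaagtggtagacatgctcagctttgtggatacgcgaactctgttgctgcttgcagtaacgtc
Ptgds: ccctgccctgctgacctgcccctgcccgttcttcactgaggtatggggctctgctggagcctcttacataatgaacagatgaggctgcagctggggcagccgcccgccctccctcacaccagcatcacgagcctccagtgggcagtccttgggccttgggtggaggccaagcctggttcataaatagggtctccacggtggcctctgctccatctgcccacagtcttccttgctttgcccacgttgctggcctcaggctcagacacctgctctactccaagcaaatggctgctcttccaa
Slc13a4: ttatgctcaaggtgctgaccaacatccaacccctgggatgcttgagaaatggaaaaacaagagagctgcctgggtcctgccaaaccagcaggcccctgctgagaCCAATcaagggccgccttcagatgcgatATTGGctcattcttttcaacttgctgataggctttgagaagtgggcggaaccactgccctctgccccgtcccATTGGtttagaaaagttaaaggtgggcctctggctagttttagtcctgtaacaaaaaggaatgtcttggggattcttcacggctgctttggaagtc
Slc13a4 held CCAAT 3 times, on the same strand 146 bases before the start and on the opposite strand 118 and 46 bases before it. Col1a2 held CCAAT on the opposite strand 221 bases before the start and TATAAA 170 bases before it. Ptgds held neither run of letters. CCAAT was found in 12549 of 33469 promoter windows (37.5%) and in 2 of the 5 matched genes, and TATAAA in 4760 windows (14.2%) and in 2 of the 5, Col1a2 and Ogn. In Ogn the TATAAA runs of both strands, 222 and 224 bases before the start, overlap. A match is only a run of letters, and factor binding was not measured.

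The fibrillar collagen genes had one profile over the 10 rats. Col1a2, which encodes the second chain of type I collagen, had log2 values of 8.99, 9.08, 8.67, 8.87 and 9.11 in C1 to C5, against 8.72, 8.86, 9.13, 8.46 and 8.14 in P1 to P5. The highest rat, P3, and the lowest, P5, belonged to the P-group, and the groups overlapped. Col1a2 averaged 8.94 ± 0.18 in the C-group and 8.66 ± 0.38 in the P-group (SD, n = 5 each), and the difference was 0.28 log2 units with a standard error of 0.18, or 1.22-fold. Its other probe set differed by 0.19 (standard error 0.16) and correlated with the first at r = 0.96 over the 10 rats.

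Col1a1, the gene of the other type I chain, had 7.90, 8.02, 7.59, 7.77 and 7.86 in the C-group, against 7.68, 7.85, 8.06, 7.52 and 7.16 in the P-group. P3 was again highest and P5 lowest, with the groups overlapping, and the difference was 0.17 (standard error 0.16). Col3a1, the type III collagen gene, had 8.52, 8.64, 8.33, 8.41 and 8.82 in the C-group, against 8.37, 8.67, 8.72, 8.01 and 7.84 in the P-group. Here C5 was highest, P4 and P5 lay below every other rat, and the groups overlapped with a difference of 0.22 (standard error 0.19). The SD of these 3 genes was 0.16 to 0.19 in the C-group and 0.34 to 0.39 in the P-group, a comparison that was not tested.

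Col6a3 and Col9a3 encode chains of collagens that do not form the main fibrils. Type VI collagen makes beaded filaments around cells, and Col6a3 had 7.48, 7.17, 7.02, 6.94 and 7.30 in the C-group, against 6.81, 7.24, 7.36, 6.79 and 6.68 in the P-group. C1 was highest and P5 lowest, the groups overlapped, and the difference was 0.21 (standard error 0.16). Type IX collagen sits on the surface of cartilage fibrils, and Col9a3 had 9.46, 8.88, 8.76, 8.96 and 9.11 in the C-group, against 8.44, 8.74, 9.01, 8.82 and 8.99 in the P-group. C1 stood above all other rats and P1 below them, so the low rat of the fibrillar collagens, P5, was not low in Col9a3. Within the P-group, P5 minus P3 was -0.99 log2 units in Col1a2 and -0.021 in Col9a3. The groups overlapped in Col9a3, with a difference of 0.23 (standard error 0.15).

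Among the other matrix genes, Mgp encodes matrix Gla protein, an inhibitor of calcification that needs vitamin K to be carboxylated. It had 8.91, 8.95, 8.56, 8.59 and 9.13 in the C-group, against 8.36, 8.57, 8.94, 8.29 and 8.29 in the P-group. P3 was as high as C1 and C2, and the other P-group rats lay at or below 8.57, so the groups overlapped. Mgp averaged 8.83 ± 0.25 in the C-group and 8.49 ± 0.28 in the P-group (SD, n = 5 each), and the difference was 0.34 (standard error 0.16). Ogn, the gene of osteoglycin, a small leucine-rich proteoglycan, had 7.56, 7.25, 6.47, 6.55 and 7.14 in the C-group, against 6.47, 6.55, 7.08, 6.31 and 6.24 in the P-group. C1, C2, C5 and P3 lay above 7, and the remaining 6 rats, of both groups, lay between 6.24 and 6.55. The difference was 0.47 (standard error 0.25), and 0.35 (standard error 0.24) at the brightest of its probe sets. The 4 probe sets of Ogn correlated with each other at r = 0.92 to 0.98, and their differences ranged between 0.35 and 0.47.

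Dcn, the gene of decorin, had 8.21, 8.41, 7.89, 7.84 and 8.23 in the C-group, against 8.13, 7.83, 8.16, 8.16 and 7.64 in the P-group. The order of the rats was its own, with P1, P3 and P4 close to C1, and P5 lowest. The groups overlapped, although C1, C2 and C5 lay above every P-group rat. The difference of 0.13 had a standard error of 0.15, the one standard error among the 10 genes' most variable probe sets that exceeded its difference.

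Slc13a4 encodes a sodium-dependent sulfate transporter of meninges and choroid plexus, and it varied most of the 10 genes. It had 9.03, 8.68, 7.50, 7.50 and 8.83 in the C-group, against 7.43, 7.40, 8.81, 7.23 and 7.64 in the P-group. The rats fell into 2 sets, with C1, C2, C5 and P3 at 8.68 to 9.03 and the remaining 6 at 7.23 to 7.64. Slc13a4 averaged 8.31 ± 0.75 in the C-group and 7.70 ± 0.64 in the P-group (SD, n = 5 each), and the difference was 0.61 (standard error 0.42), or 1.52-fold. Both sets held rats of both groups.

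Ptgds encodes lipocalin-type prostaglandin D synthase, a secreted enzyme and carrier protein made by meningeal cells, choroid plexus and oligodendrocytes. It had 11.98, 12.15, 11.83, 11.96 and 12.04 in the C-group, against 11.82, 11.76, 11.98, 11.56 and 11.26 in the P-group. Its C-group rats lay close together (SD 0.11, against 0.28 in the P-group), and P1, P2, P4 and P5 were below all of them, whereas P3 was level with C1. The mean of Ptgds was 11.99 in the C-group and 11.67 in the P-group, which differ by 0.32 (standard error 0.13), or 1.25-fold.

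**Figure D1:**
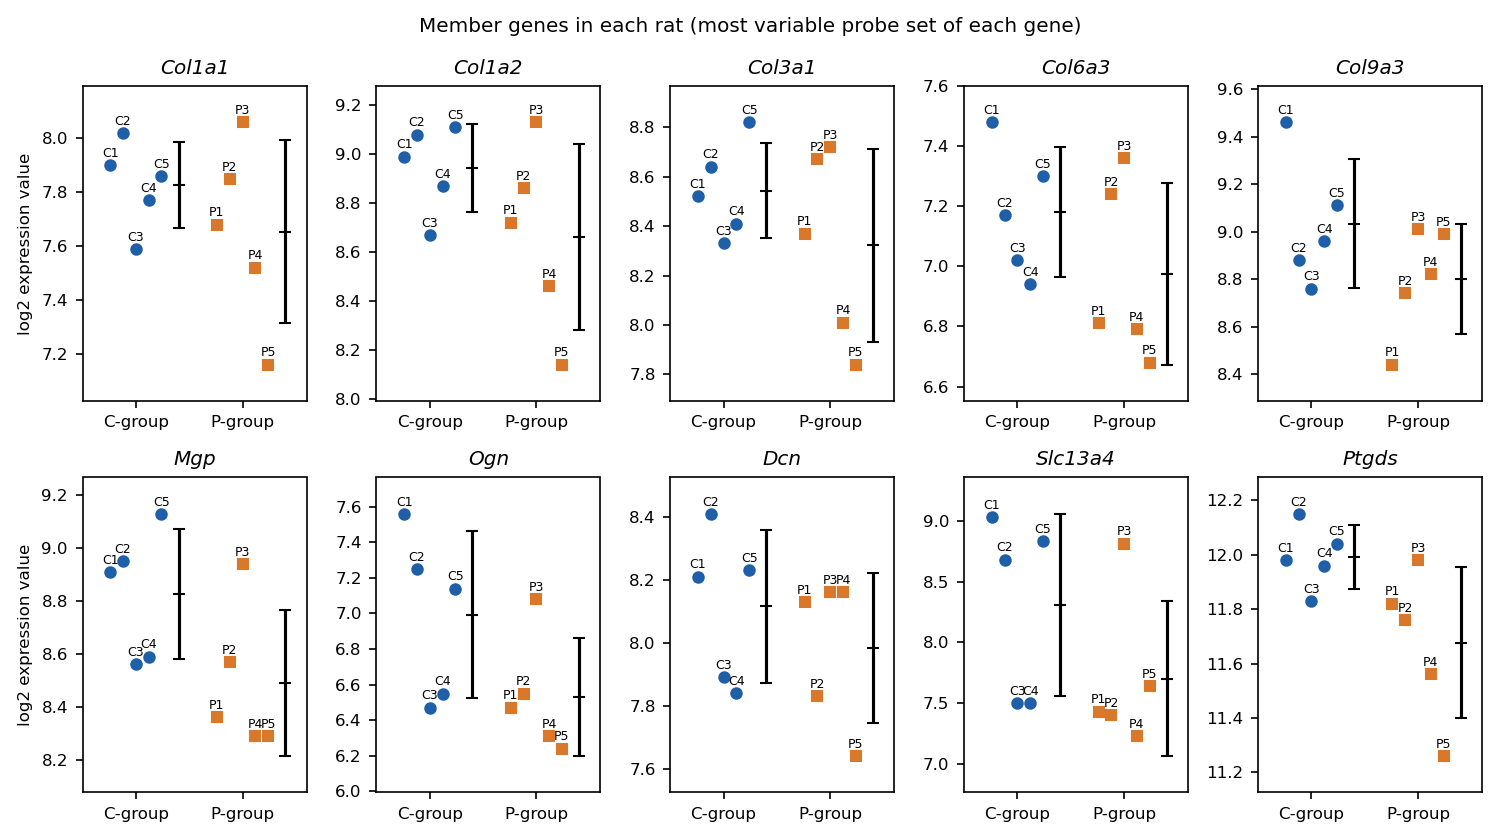
Log2 expression value (vertical axis) of each of the 10 genes at its most variable probe set, with 1 point per rat, C-group circles left and P-group squares right, and bars for mean and SD (n = 5 each). The vertical axes differ between panels and do not start at 0. P3 lies with C1, C2 and C5 in most panels, and P5 is lowest in 7 of 10.

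Counted over the genes, C1, C5 and P3 were above the gene's own 10-rat mean in 10 of 10 genes and C2 in 9 of 10. P5 was lowest in 7 genes, P4 in 2 and P1 in 1. The 4 highest rats were C1, C2, C5 and P3 in 6 of the 10 genes (Col1a1, Col1a2, Mgp, Ogn, Slc13a4 and Ptgds). The mean of the 10 genes, each centred on its own mean, was 0.38, 0.30, -0.17, -0.090 and 0.33 in C1 to C5, against -0.21, -0.081, 0.30, -0.31 and -0.44 in P1 to P5. Thus 3 of 5 C-group rats and 1 of 5 P-group rats were above 0, and the groups overlapped. The means were 0.15 ± 0.26 in the C-group and -0.15 ± 0.28 in the P-group (SD, n = 5 each), and the difference was 0.30 log2 units.

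The profiles of the 10 genes were then set beside Ttr, which encodes transthyretin and is an abundant transcript of choroid plexus epithelium. Ttr had 13.59, 13.49, 10.35, 9.09 and 13.60 in C1 to C5, against 7.40, 9.29, 13.58, 10.18 and 12.99 in P1 to P5. It thus fell into 2 separate sets of rats, 5 at 12.99 or above and 5 at 10.35 or below, and its correlation over the 10 rats was not used to describe the genes. The rat that set the genes apart was P5, in the high set for Ttr (1.82 log2 units above the mean of the other 9 rats). Against that mean, P5 was at -0.74 in Col1a2, -0.64 in Ptgds, -0.58 in Ogn and -0.41 in Slc13a4. P5 minus P3, both high in Ttr, was -0.59 in Ttr and -1.17 in Slc13a4. P2 minus P1, both low in Ttr, was 1.89 in Ttr, 0.14 in Col1a2 and -0.024 in Slc13a4. Col9a3 was the exception again, at 8.99 in P5, 0.082 above the mean of the others. These contrasts hold for Ttr and not for all choroid plexus markers. Sostdc1 had 9.49 in P3, 8.33 in P5, 6.27 in P1 and 6.17 in P2, and Mfrp had 8.71, 7.46, 6.04 and 6.02. F5 (5.81 in P1 and 6.71 in P2), Otx2 (5.67 and 7.74) and Kcne2 (5.43 and 6.22) were higher in P2, as Ttr was. A separation from Ttr is thus not a separation from the choroid plexus.

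**Figure D2:**
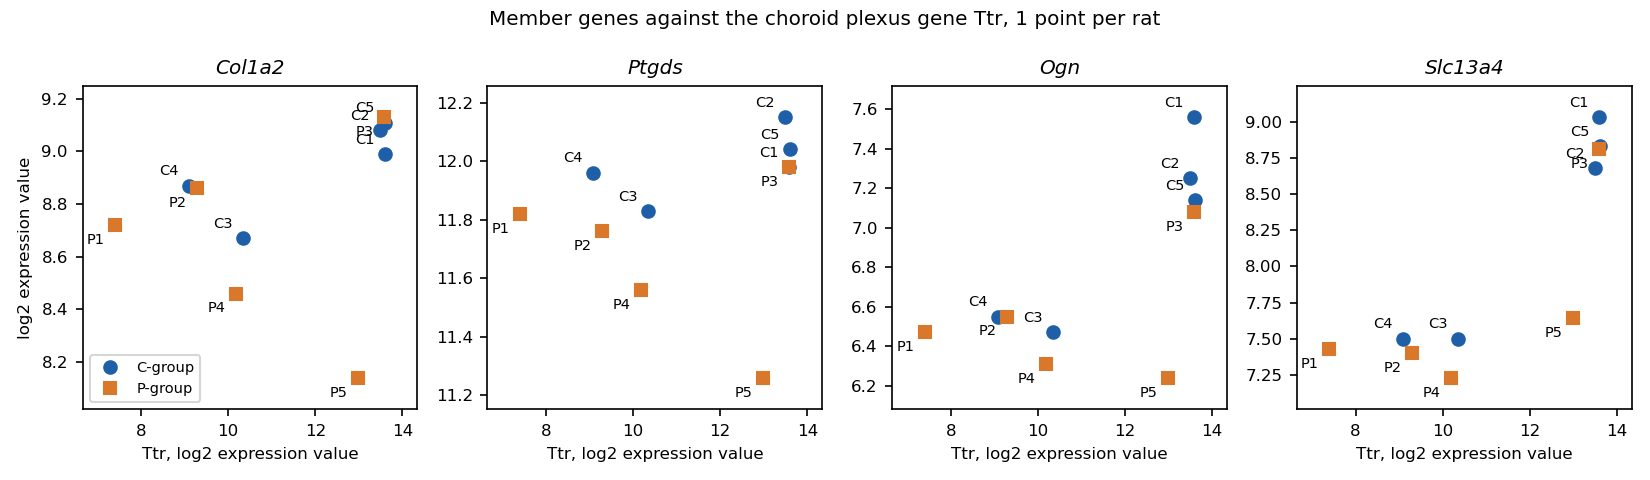
Log2 expression value of Col1a2, Ptgds, Ogn and Slc13a4 (vertical axes, which do not start at 0) against that of Ttr (horizontal axis), 1 labelled point per rat, C-group circles and P-group squares. P5, at 12.99 for Ttr, lies apart from C1, C2, C5 and P3 in all 4 panels.

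Between the 10 genes, the 45 pairwise Pearson correlations over the 10 rats were all above 0, with a median of 0.72 and a range of 0.17 to 0.97, and 18 pairs (40.0%) exceeded 0.8. Among pairs of the 1779 other genes with a variable probe set, the median was 0.10 and 9.73% exceeded 0.8. Because shared variation was part of how the 10 genes were chosen, this is a description, and the rats, arrays and normalization are shared by every pair. Col1a1, Col1a2 and Col3a1 correlated at 0.92 to 0.97, and the highest correlation of the 45 was that of the type I collagen chains (r = 0.97, Spearman's rho = 0.95, and r = 0.92 without P4 and P5, the rats farthest from the median). Ptgds correlated with Col1a2 at r = 0.95 (rho = 0.87, and r = 0.77 without P4 and P5), with Col1a1 at 0.91 and with Col3a1 at 0.86, which was 0.44 without P4 and P5. The correlation of Ptgds with Col3a1 thus rested largely on those 2 rats.

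Mgp correlated with Ogn at r = 0.90 (rho = 0.89, and r = 0.90 without C2 and C5) and with Col1a2 at 0.88 (rho = 0.94, and r = 0.91 without P4 and P5). Since C1, C2, C5 and P3 were the highest rats in both Mgp and Ogn, their r reflects in part the distance of these rats from the others. Leaving out C2 and C5 does not remove this, because C1 and P3 remain. Ogn and Slc13a4 had r = 0.94, but since both lay in separate sets of rats this r measures mainly the distance between the sets, and rho was 0.71. Col6a3 correlated with the 9 other genes at a median of 0.83. The 2 genes that stood apart were Dcn, whose correlations had a median of 0.63 and none above 0.71, and Col9a3, with a median of 0.29 and a highest value of 0.72 with Slc13a4. Col9a3 had r = 0.29 with Col1a2, which was 0.63 without P4 and P5.

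**Figure D3:**
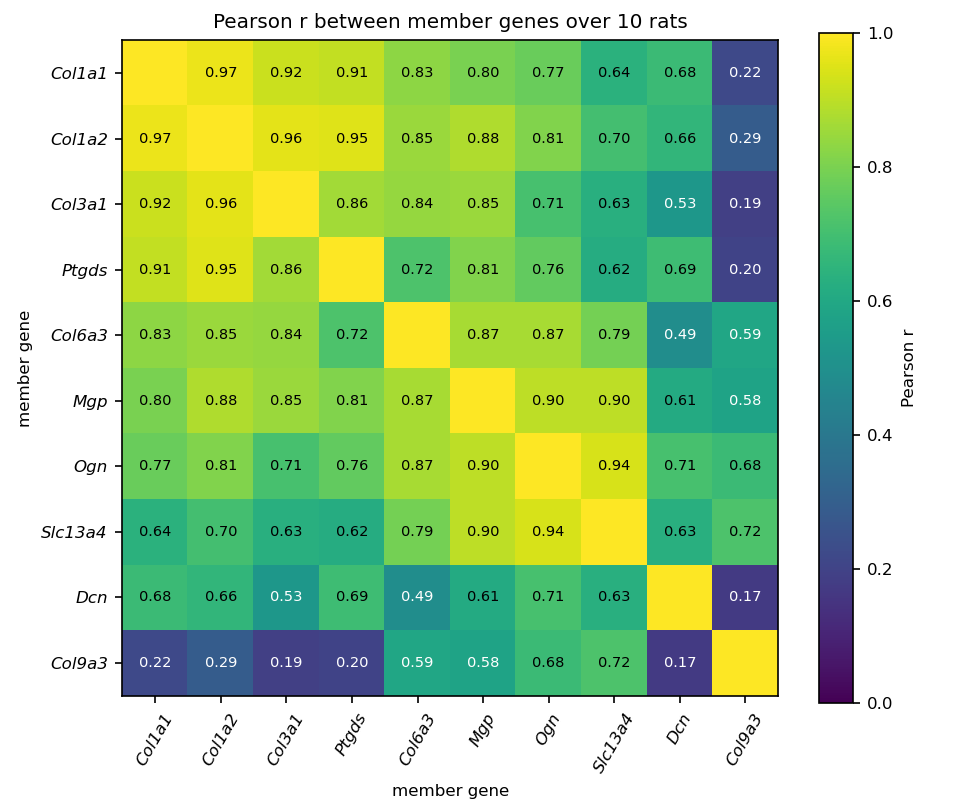
Pearson r over the 10 rats for each pair of the 10 genes (both axes), coloured and printed in each cell, with no number on the diagonal. Col1a1, Col1a2, Col3a1 and Ptgds form a block at 0.86 to 0.97, whereas the row of Col9a3 runs between 0.17 and 0.72.

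Outside the 10 genes, the profile most like their mean, among 1779 genes, was that of Sfrp1, a secreted Wnt inhibitor (r = 0.96 over 10 rats). It had 7.52, 7.26, 6.70, 6.73 and 7.41 in the C-group, against 6.59, 6.88, 7.37, 6.59 and 6.66 in the P-group, so that the same 4 rats, C1, C2, C5 and P3, were high. Because the mean of the 10 genes was also highest in these 4 rats, this r reflects in large part their distance from the other rats. Ifitm2, Igf2 (insulin-like growth factor 2), Cdkn1c (a cell cycle inhibitor) and Crip2 followed at 0.95, Dab2 at 0.94, Timp3 (a metalloproteinase inhibitor) at 0.93, and Anxa2, Sod3 (extracellular superoxide dismutase) and Sned1 at 0.92. The lowest correlations were those of Gpr161 and Sfrp2 (-0.78) and of Gna14, Aldh1a1 and Pcdh20 (-0.75).

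The nearest genes differed from member to member. Gjb2, the connexin 26 gene, was among the 3 nearest genes of Col1a1 (r = 0.89), Col1a2 (0.94), Col3a1 (0.94) and Ptgds (0.84). Gjb2 had 8.30, 8.15, 8.05, 8.15 and 8.39 in the C-group, against 7.97, 8.20, 8.43, 7.76 and 7.67 in the P-group, with P3 highest and P5 lowest, as in Col1a1 and Col1a2. The other near genes were Hlf (0.90) and Sod3 (0.87) for Col1a1, Sod3 and Ifitm2 (both 0.87) for Col1a2, Abi3bp (0.92) and Hlf (0.89) for Col3a1, and Camk2n1 (0.86) and Ckap4 (0.83) for Ptgds. Slc13a4 was nearest to Aqp1, a water channel of the choroid plexus (0.99), and to Mdk and Ace (both 0.98). Aqp1 had 8.11, 7.58, 6.18, 6.09 and 7.68 in the C-group, against 6.15, 6.13, 7.64, 6.11 and 6.69 in the P-group, the same 2 sets of rats as Slc13a4. Mdk and Ace were high in the same rats, so these r measure mainly the distance between the sets. The same limit applies to Ogn, and in part to Mgp, as the 3 nearest genes of each were also highest in C1, C2, C5 and P3. Ogn was nearest to Timp3 and Dab2 (both 0.99) and Crip2 (0.97), Mgp to Cdkn1c (0.98), Sfrp1 (0.94) and Crip2 (0.92), and Col6a3 to Cp, the ceruloplasmin gene (0.95), Ifitm2 (0.94) and Sod3 (0.93). Col9a3 was nearest to Car14, a carbonic anhydrase gene, and Arhgef18 (both 0.95) and to Sgk3 (0.94). For Dcn the highest values were those of Magi1 (0.77), Reck and Reln (both 0.72), so that no gene outside the 10 followed Dcn as closely as others followed the collagens.

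To compare the groups over the whole array, the study's methods name rank products, which subtracts every P-group rat from every C-group rat (25 pairs of rats) and ranks the results over the whole array, and a false discovery rate (FDR) under 0.05. Recomputed here from the deposited values, it called 620 of 31042 probe sets (2.0%) higher in the C-group and 129 (0.416%) lower. These are counts of probe sets from the recomputation and not the counts of genes that the study printed. Of the 16 probe sets of the 10 genes, 13 were called higher and none was called lower, and 9 of 10 genes were called at the most variable probe set. Since the comparison of the groups was part of the choice of the genes, nothing is read from this count. Every call on the array fell on a variable probe set, and 21.3% of the 2904 variable probe sets were called higher. The lowest FDR values were those of Slc13a4 (0.00182), Ogn (0.00458), Ptgds (0.00685) and Mgp (0.00750), followed by Col1a2 (0.0193), Col9a3 (0.0319), Col6a3 (0.0325) and Col3a1 (0.0328). Dcn lay just inside the threshold (0.0465) and Col1a1 just outside it (0.0525).

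These calls depended on the nearly constant probe sets being ranked too. When rank products was run on the 2904 variable probe sets alone, none of the 13 calls was made (FDR of 0.278 for Slc13a4 and 0.515 for Ogn), and 9 of the 2904 were called higher. The method does not divide a difference by its spread, and limma, which does, called 0 of 31042 probe sets (0%), with 915 (2.95%) at an unadjusted p under 0.05. For the 16 probe sets, adjusted p was 0.927 to 0.928 (limma, Benjamini-Hochberg). The 2 of the 16 among these 915 were Ptgds and the constant probe set of Col6a3, whose groups differed by -0.00044 log2 units.

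Single rats also decided several calls. Of the 620 higher calls, 461 (74.4%) had their top value in C1. Without C1 the calls among the 16 probe sets numbered 5, without C2 4, without C4 7, without C5 7 and without P5 8. Mgp, Slc13a4, Ptgds and the most variable probe set of Ogn were called with each of the 10 rats left out in turn (highest FDR of 0.0450, 0.0256, 0.0410 and 0.0424). Col1a2 and Col3a1 lost the call without C1, C2, C4, C5, P4 or P5, Col6a3 without any of these or P1, Col9a3 without C1, C2, C4, C5, P1 or P2, and Dcn without C1, C2, C4, C5, P2 or P5. The other probe sets of Ogn lost it without C2, and 2 of the 3 also without C1. Without P5 the difference was 0.15 in Col1a2 (0.093 at its other probe set), 0.10 in Col3a1, 0.14 in Col6a3, 0.051 in Col1a1 (FDR 0.286) and 0.047 in Dcn. Without C1 it was 0.14 in Col6a3, 0.13 in Col9a3 and 0.25 at 1 probe set of Ogn. Col3a1 differed by 0.14 without P4, Col9a3 by 0.14 without P1, and Dcn by 0.060 without C2 and 0.20 without C4. Col1a1 became called without P2 (FDR 0.0384) or P3 (FDR 0.0108).

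**Figure D4:**
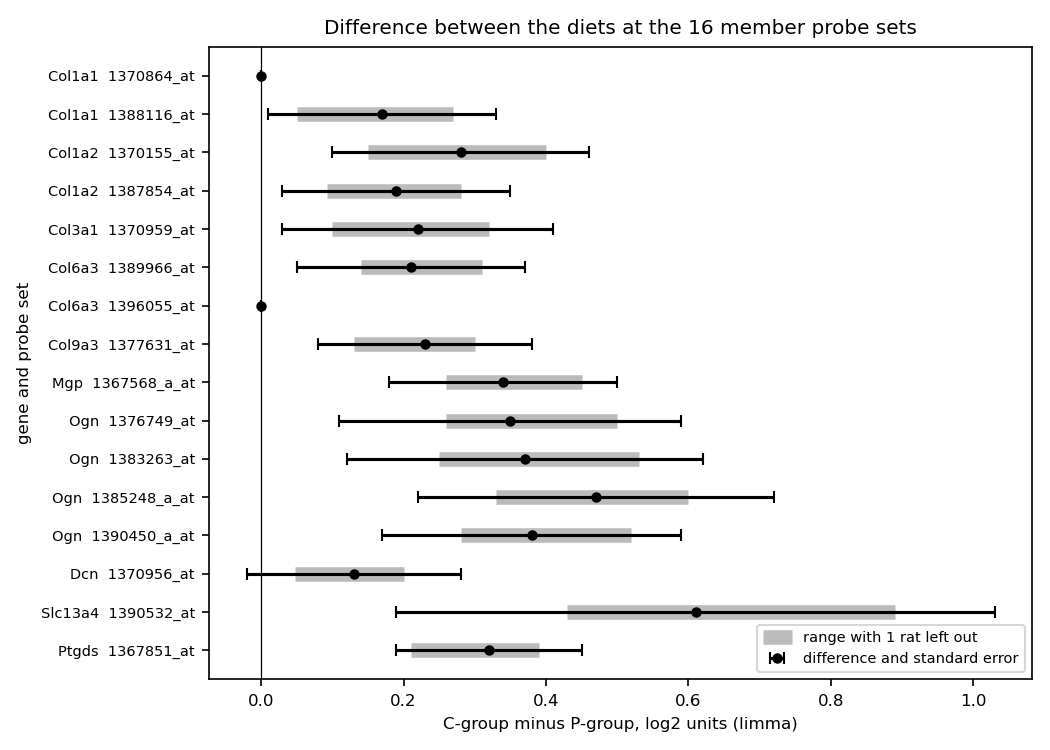
Difference in mean log2 expression value, C-group minus P-group (horizontal axis), for each of the 16 probe sets (vertical axis), with the limma standard error as bars and the range with 1 rat left out in grey. The differences of the 14 variable probe sets run from 0.13 to 0.61, and the 2 constant probe sets lie at 0.

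Markers of the cell types that a hippocampal sample can hold were read off the same values. Of 24 measured meningeal fibroblast markers outside the 10 genes, 9 were variable, 4 were called higher in the C-group (Igfbp2, Igf2, Fmod and Gjb2) and none lower, with a median difference of 0.10 over the 9, against 0.058 over the 1789 variable genes and 0.26 over the 10 genes. Of those 1789 genes, 346 (19.3%) were called higher and 85 (4.75%) lower, which is the background of this and the following counts. Without C1 none of the 24 was called, without C2, C5 or P4 1 was, and without P1 or P5 2 were. Igfbp2, an IGF-binding protein gene, had 10.84, 10.05, 9.02, 9.22 and 10.58 in the C-group, against 9.10, 9.27, 10.52, 8.75 and 9.30 in the P-group, again with C1, C2, C5 and P3 high. The mean level of the 9 ran between 8.42 and 8.99 in the C-group and between 8.38 and 8.90 in the P-group. Its correlation with the mean of the 10 genes over the 10 rats was 0.93, as a description. A high value was not particular to this list, as the variable genes of TGF-beta signaling (described below) had 0.91 and the choroid plexus markers 0.80. Oligodendrocyte and hippocampal neuron markers had -0.40 and -0.21. Of single genes, Slc13a4 had r = 0.96 with the choroid plexus markers and 0.94 with the meningeal ones, and Col1a2 had 0.50 and 0.75. In the same order, Ogn had 0.86 and 0.93, Mgp 0.80 and 0.90, Col9a3 0.79 and 0.77, and Col6a3 0.70 and 0.92. Dcn had 0.51 and 0.52, Col1a1 0.45 and 0.72, Col3a1 0.45 and 0.71, and Ptgds 0.39 and 0.60. The label of meningeal fibroblasts could be checked only in part, because the other 15 markers, among them Lum, Foxc1, Tbx18, Crabp2 and Aldh1a2, had nearly constant values. Of the variable ones, Aldh1a1 and Apod had correlations below 0 with the mean of the 10 genes (r = -0.75 and -0.34), and Serping1 had r = 0.12.

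Of 18 measured choroid plexus markers, 16 were variable, all 16 were called higher in the C-group and none lower, with a median difference of 0.62. Without C1, 7 of the 16 were called. Their mean level ran between 6.44 and 8.96 in the C-group and between 6.31 and 8.50 in the P-group. Centred over the rats, it was 1.51, 0.87, -0.80, -1.01 and 1.07 in C1 to C5, against -1.14, -0.79, 1.05, -0.89 and 0.15 in P1 to P5. The rats high in these markers were thus those high in the 10 genes, apart from P5. The part of choroid plexus or meningeal tissue in the differences of the 10 genes was not tested. In such bulk samples fewer cells of a type and less RNA per cell cannot be told apart.

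The mean level of 8 variable oligodendrocyte markers of 9 measured was 10.31 to 10.62 in the C-group and 10.22 to 10.57 in the P-group, and was highest in C4 and P5. Of these markers 1 was called higher (none without C1, C2, C3, C4, C5, P1, P3 or P4, and 2 without P5). None was called lower with all rats, but Mag was called lower without C3 or C4, with a difference of -0.24 in both cases. Oligodendrocytes are another source of Ptgds, and their part in its values was not tested. Of 8 measured astrocyte markers 4 were variable and 3 were called higher (centred mean -0.062 to 0.34 in the C-group, -0.26 to 0.21 in the P-group), of which none was called without C1 and 1 without C2. Of 9 endothelial and 10 mural cell markers, 1 each was variable and none was called, of 8 microglia markers 4 were variable and none was called, and of 4 blood cell markers 1 was variable and not called. Of 12 measured hippocampal neuron markers 7 were variable, 1 was called higher (not without C1, C2, C3, P4 or P5) and 1 lower (not without P4). Their mean level was 9.05 to 9.28 in the C-group and 9.03 to 9.22 in the P-group. Single markers varied more and not together, as Wfs1 ran from 7.63 in C1 to 8.83 in C4, and Zbtb20 from 7.66 in P5 to 8.68 in C1. Pineal and photoreceptor markers, 8 of 9 variable and 5 called lower, were at 6.10 to 6.16 in the C-group and 6.08 to 8.49 in the P-group, with the high value in P2 alone, none was called without P2, 2 were without P4 or P5, and 3 without P1. P2 was not extreme in the 10 genes (centred mean -0.081).

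**Figure D5:**
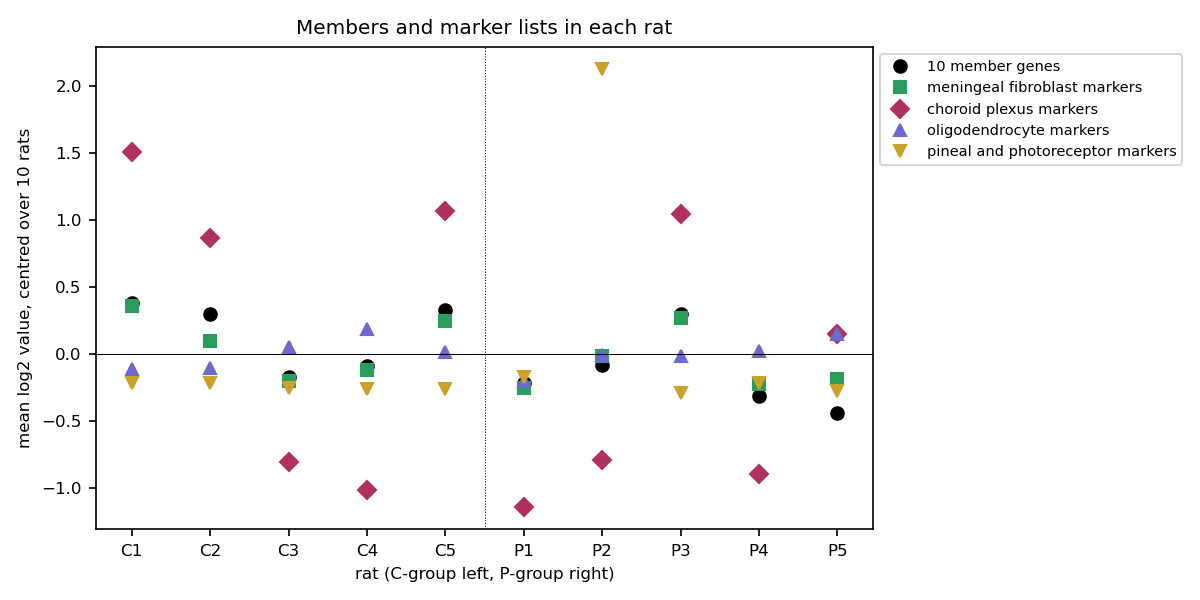
Mean log2 expression value, centred over the 10 rats (vertical axis), of the 10 genes and the variable genes of 4 marker lists in each rat (horizontal axis, C-group left and P-group right). The 10 genes and the meningeal fibroblast markers are high in C1, C5 and P3, choroid plexus markers range from -1.14 to 1.51, and in P5 the 10 genes are at -0.44 while the choroid plexus markers are at 0.15.

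Most other genes of the pathways of the 10 genes were nearly constant in the deposited values. Of 29 other collagen genes measured, 27 were nearly constant, including Col5a1 and both Col6a1 and Col6a2, whose chains join that of Col6a3 in type VI collagen. Col8a2, a gene of short-chain collagen VIII, was called higher with a difference of 0.31 (standard error 0.35), and had 7.95, 7.29, 6.55, 6.53 and 7.66 in the C-group, against 6.54, 6.51, 7.67, 6.69 and 7.04 in the P-group. C1, C5 and P3 were highest. The call was lost without C1, C2, C5 or P2, and the difference was 0.12 without C1, 0.19 without C5, 0.47 without C3 or C4 and 0.50 without P3. Col8a1 was not called (difference -0.034, standard error 0.31) and was highest in P2.

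Of 25 genes for the folding, crosslinking and turnover of collagen, 9 were variable and 5 were called higher (Serpinh1, Ppib, Timp3, Mmp2 and Mmp14), none lower, with a median difference of 0.15 over the 9. Mmp2, a gelatinase gene, differed by 0.39 (standard error 0.37) and Serpinh1, the gene of the collagen chaperone HSP47, by 0.24 (standard error 0.12). C1 was the highest rat in both, and without C1 they differed by 0.18 and 0.14 and none of the 5 was called. Without P3 Mmp2 differed by 0.62. Ppib, a prolyl isomerase gene called higher at 0.12 (standard error 0.18), did not vary with the 10 genes (r = 0.039 with their mean), and with P1 left out its difference was -0.0014 (0.080 with C4 left out and 0.26 with C2 left out). Without C2 or C5, 1 gene of the list was called, without C4 2 and without P1 or P5 3. Of 8 small leucine-rich proteoglycan genes other than Ogn and Dcn, both variable ones, Fmod (fibromodulin, difference 0.30, standard error 0.32) and Prelp (difference 0.20, standard error 0.13), were called higher, whereas Lum and Bgn were nearly constant. Neither call was made without C1, C2, C5, P1, P4 or P5. Without C1 Fmod differed by 0.089 and Prelp by 0.11, and Fmod differed by 0.47 without C3 and 0.46 without P3.

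Around Ptgds, 12 of 13 genes of prostaglandin synthesis, receptors and transport were nearly constant, among them both cyclooxygenase genes, Ptgs1 and Ptgs2, and the variable one, Ptges3, was called lower with a difference of -0.19. Ptges3 was at 10.63 in C1 and between 11.26 and 11.40 in the other 9 rats, and without C1 the difference was -0.052. The call was made only with no rat, C3, C4 or C5 left out. Around Slc13a4, all 10 measured genes of sulfate transport and activation were nearly constant. Around Mgp, 3 of 7 genes of vitamin K dependent carboxylation were variable and none was called. Of 16 measured genes of TGF-beta signaling, which drives collagen synthesis in fibroblasts, 4 were variable and none was called, with a median difference of 0.069. A nearly constant value shows only that qFARMS left little variation in a probe set, as in the constant probe set of Col1a1. Whether those genes changed could not be judged here.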

How the data were processed

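Total RNA of 10 hippocampi was hybridised to Affymetrix rat genome arrays, 1 array per rat, after labelling of 100 ng. The authors normalized and summarized the scanner files with qFARMS in R, and the deposited values are log2 expression values per probe set. The scanner files were not used here. Of 31099 probe sets, 57 controls were left out, 20826 of the others carried 1 gene symbol in the platform annotation, 436 several and 9780 none, and only those with 1 symbol were named. The gene IDs of all 10 genes matched the RefSeq table of GRCr8, and no genome build is given in the sources used here for the values. No columns were identical.

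Rank products was computed without pairing in Python 3.11.15 with scipy 1.17.1, pandas 2.3.3 and numpy 2.4.6 with 100 permutations within arrays and an FDR threshold of 0.05. limma 3.58.1 in R 4.3.3 gave differences, standard errors and adjusted p-values over all probe sets. Both were run on simulated data with known changes. The differences and the error rate of limma were checked there, whereas for rank products only the calls of changed probe sets were counted. The number of arrays, 5 in each group, limits the precision, and arrays give no read depth. Each array is a separate rat by the labels and the paper. The same replicate numbers in both groups pair nothing in the labels.

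The named genes are the 10 genes, Ttr, up to 4 variable genes of a list by SD, and the genes nearest to the 10 by Pearson's r. Serpinh1, Apod, Serping1, F5, Otx2, Kcne2 and the constant genes that are named were chosen after their values were seen. The 10 genes and the lists (cell type markers, other collagens, collagen processing, small leucine-rich proteoglycans, prostaglandin, sulfate, vitamin K and TGF-beta genes) were chosen with earlier results of these data known. The alternatives were other normalizations, filters on dim or constant probe sets, a replicate block, Spearman's rho, fewer genes and 1 rat left out. Leaving out rats for the genes of the lists was chosen after seeing the data.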

Additional observations from a re-analysis of the deposited data

Results flagged for a closer look

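Of 30 groups of 5 values examined, 1 held a rat far from the others. Slc13a4 in the P-group was 8.81 in P3, and the nearest of the other P-group rats was P5 at 7.64. The gap was 0.739 of the range of the group, above the critical value of 0.71. Chance flags about 1 in 20 groups. P3 was also above the 10-rat mean in each of the other 9 genes.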

How the results depend on the processing

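Over all probe sets, 620 were called higher in the C-group and 129 lower. With variable probe sets only, 9 and 0 were called, and with the probe sets above the median brightness 157 and 37. With 1 rat left out, calls ranged from 61 to 789 for higher and from 10 to 221 for lower. Of the 13 calls among the 16 probe sets, 0 were made with variable probe sets only, 6 with those above the median brightness (where 13 of the 16 remained) and 4 to 14 with 1 rat left out. limma called 0 in every setting run.

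The difference in the mean of the 10 genes was 0.23 to 0.41 with 1 rat left out, and their median correlation 0.70 to 0.79. The correlation of that mean with Ttr, 0.61, was 0.89 without P5 and 0.55 at the lowest with 1 rat left out. It was not read because Ttr lay in 2 sets of rats. With the genes Ptgds, Slc13a4 and Col9a3 left out, the difference in the mean was 0.26, the median correlation 0.83 and the correlation with Ttr 0.49. The constant probe set of Col1a1 turned to -0.0093 under quantile normalization and to -0.0061 after centring arrays on their medians. Dcn lost its call with quantile normalization (FDR 0.0592).

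Rats with the same replicate number deviated together at r = 0.28, -0.011, -0.39, 0.48 and 0.45. Without values for unmatched rats beside them, these r cannot show whether the numbers mark pairs. The numbers were not taken as pairs because the labels do not say that they are. With the replicate block, 912 probe sets were called higher, 338 lower and 13 of the 16, where Col1a1 gained the call (FDR 0.0126) and Dcn lost it (FDR 0.0734).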
